A study of Mus musculus with 6 samples.

Results

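Lysosomes are acidic compartments in which cells break down what they engulf and their own worn parts. Soluble hydrolases cleave proteins, lipids and sugar chains, membrane proteins such as the LAMPs line and protect the compartment and move its products out, and the vacuolar proton ATPase (V-ATPase) pumps in the protons that acid hydrolases need. Transcription factors of the MiT/TFE family, among them TFEB, TFE3 and MITF, bind short promoter sequences shared by many lysosomal genes, and macrophages, which digest dying cells and debris, are rich in lysosomes.

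The lysosomal set examined here holds 42 of the 51912 genes listed in the count files: 13 hydrolases, 2 cofactors or multi-domain precursors, 9 membrane proteins, 15 V-ATPase genes (5 of the membrane sector V0, 8 of the cytosolic sector V1 and 2 accessory) and 3 MiT/TFE regulators. The genes were chosen by symbol for their roles, with earlier results of these data known. Cells came from the aorta-gonad-mesonephros (AGM) of MacGreen mouse embryos at E10.5. In these embryos the Csf1r promoter drives EGFP, so green cells are macrophages and some of their precursors. Green cells were sorted into those with surface mannose receptor CD206 (the CD206pos group, 3 libraries) and those without it (the CD206neg group, 3 libraries). The series design names 3 independent litters, and 3 to 5 AGM were pooled per library. The tissue was digested for 45 min at 37 °C for all 6 libraries. A CD206pos and a CD206neg library with the same sample number were taken to come from the same litter, which the labels do not state. All 6 libraries carried the reporter, and no genotype or treatment differed between the groups by their labels.

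Libraries held 16730846 to 18214283 reads in genes. Levels are CPM (reads of a gene relative to the total read count of the library) scaled by TMM, given for litters 1, 2 and 3 in that order, and log2 fold changes are CD206pos over CD206neg. Tests are edgeR's quasi-likelihood F tests over 12668 genes, and a gene is called at a Benjamini-Hochberg adjusted p under 0.05. Mrc1, which encodes CD206, was at 1456, 1790 and 1503 CPM in CD206pos and at 51.5, 118.3 and 111.4 CPM in CD206neg, which checks the sort and is no result. Csf1r averaged 2281 ± 613.6 CPM in CD206pos and 1597 ± 157.5 CPM in CD206neg (SD, n = 3 each, edgeR adjusted p = 0.23).

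Some members carry in their promoters the letters that MiT/TFE factors are known to bind, and these windows are shown because Tfeb, Tfe3 and Mitf belong to the set. RefSeq promoter windows (GRCm38.p6, 250 bases before to 50 after a gene start, 300 bases in all) were found for 36 of the 42 members. Each motif was searched on both strands. The E-box core CACGTG was in a window of 8 of the 36 members (22.2%) and of 8.09% of all 27025 genes with a window. TCACGTGA, which contains the E-box core and adds the flanking letters of the CLEAR element, was in 4 of the 36 (11.1%) and in 1.12% of all genes. The M-box letters TCATGTG were in 6 of the 36 (16.7%) and in 4.31% of all genes. The windows of Lamp1 and Mcoln1 each hold more than 1 E-box close to the start, and those of Mcoln1, Gla, Atp6v0d1 and Atp6v1a hold the longer form. The window of Atp6v0b, not printed here, holds 2 E-boxes, 36 and 18 bases before the start. Grn and Tpp1, 2 of the genes called higher in CD206pos, hold the M-box letters. Capitals mark the E-boxes or, in Grn and Tpp1, the M-box letters, which read as their reverse complement where they lie on the other strand. The M-box letters of Gla, between its E-boxes, are left in lower case. Each sequence is written 5′ to 3′ on the strand of its gene.
Lamp1, chr8:13159080-13159171, plus strand: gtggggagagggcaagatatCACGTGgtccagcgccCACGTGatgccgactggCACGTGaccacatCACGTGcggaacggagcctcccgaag
Mcoln1, chr8:3500428-3500499, plus strand: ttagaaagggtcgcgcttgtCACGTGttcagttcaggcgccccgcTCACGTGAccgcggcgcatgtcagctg
Gla, chrX:134601174-134601252, minus strand: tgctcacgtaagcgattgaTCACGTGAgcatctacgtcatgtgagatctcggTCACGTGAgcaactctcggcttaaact
Atp6v0d1, chr8:105566042-105566087, minus strand: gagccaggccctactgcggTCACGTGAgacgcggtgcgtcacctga
Atp6v1a, chr16:44139365-44139410, minus strand: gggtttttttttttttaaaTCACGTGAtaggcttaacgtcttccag
Grn, chr11:102430277-102430323, plus strand: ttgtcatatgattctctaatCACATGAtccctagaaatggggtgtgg
Tpp1, chr7:105752192-105752251, minus strand: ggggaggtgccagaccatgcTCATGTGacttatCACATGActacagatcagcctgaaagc

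The 4 E-boxes of the Lamp1 window lay between 61 and 15 bases before its start, and the 2 of Mcoln1 lay 71 and 45 bases before. Among the 9 members called higher in CD206pos, all of which had a window, 1 held CACGTG (Lamp1), 0 held TCACGTGA and 2 held TCATGTG. Among the 27 uncalled members with a window the counts were 7, 4 and 4. A match is a description of letters, and no binding was measured here.

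The comparison asked how lysosomal transcripts differ between CD206pos and CD206neg green cells. Of the 42 genes, 41 passed the filter on low counts. Grn, Tpp1, Hexa, Neu1, Lamp1, Laptm4a, Ctns, Atp6v0a1 and Atp6ap2 rose in CD206pos, none fell and 32 did not pass. This is 9 of 41, where 2.97% of all tested genes were called higher and 1.90% lower. The members were chosen with earlier results of these data known, so counts set beside all tested genes are a description and no independent test. All 41 fitted log2 fold changes lay above 0, between 0.03 and 1.60, with a median of 0.44, where the median over all tested genes was -0.004. Most differences were small: the called genes lay between 1.52-fold and 3.02-fold. The 2 groups did not overlap for 25 members, all higher in CD206pos, where 12.8% of all tested genes were higher and 11.8% lower without overlap. For the 0 genes called lower, edgeR had 0 at an unadjusted p under 0.05, and DESeq2 and limma-voom called 0 as well. DESeq2 and limma-voom each called 14 members higher, and library totals as the only scaling left 5 (Grn, Lamp1, Tpp1, Atp6v0a1 and Atp6ap2).

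**Figure D1:**
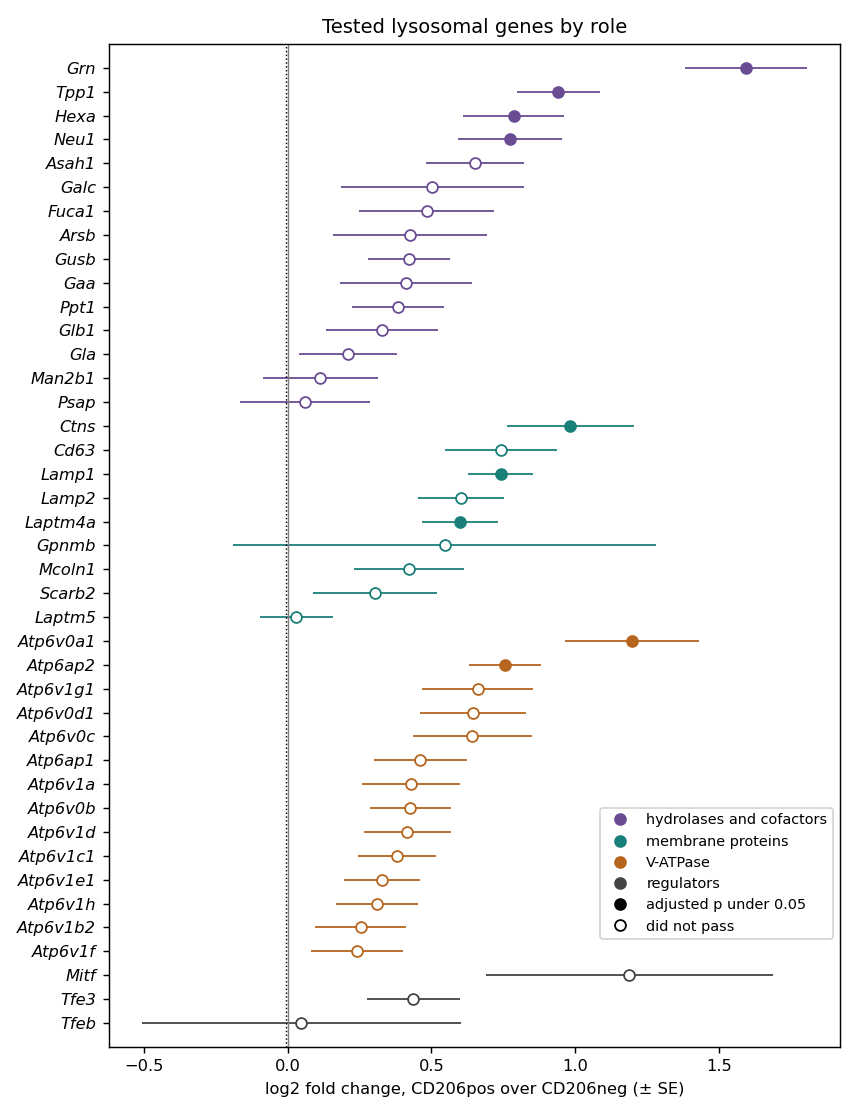
Each row is 1 of the 41 tested genes and the x axis is its log2 fold change, CD206pos over CD206neg, with bars of 1 SE; colour gives the role, filled circles mark an adjusted p under 0.05, and the dotted line is the median of all tested genes. All 41 points lie above 0, 9 are filled, and Grn lies farthest right at 1.60.

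The number of calls depended on single libraries. It was 9 without CD206pos replicate 1, 1 without CD206pos replicate 2, 4 without CD206pos replicate 3, 3 without CD206neg replicate 1, 1 without CD206neg replicate 2 and 4 without CD206neg replicate 3. Without both libraries of litter 1 it was 4, and without those of litter 2 or of litter 3 it was 0. Over all tested genes, the calls in either direction numbered 307 without litter 1, 3 without litter 2 and 153 without litter 3, against 617 with all libraries. Grn stayed called without any 1 library (adjusted p between 0.0057 and 0.041) and was lost without both libraries of litter 2 (0.13) or of litter 3 (0.074). With the litter as a replicate block 12 members were called: Asah1, Atp6v0d1, Cd63 and Lamp2 joined and Ctns was lost.

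Within litters, as paired by sample number, the lysosomal genes were higher in CD206pos for most members in each of the 3. The median log2 ratio of the 41 tested members was 0.47, 0.48 and 0.56 in litters 1, 2 and 3, and 36, 38 and 40 of the 41 were higher in the CD206pos library. For 32 members the direction was the same in all 3 litters.

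The soluble hydrolases and their 2 cofactors had the most calls in number, though the membrane proteins had a larger share called. Of the 15 hydrolase and cofactor genes 4 rose and 11 did not pass (median log2 fold change 0.43), and 7 did not overlap between the groups. For this role and those below, the shares over all tested genes were 2.97% called higher and 12.8% higher without overlap. Summed over the 15 genes, the level was 6141.9, 8164.2 and 9320.8 CPM in CD206pos and 5065, 5712 and 6330.2 CPM in CD206neg, a ratio of the means of 1.38. The lowest CD206pos value, of litter 1, lay below the highest CD206neg value, of litter 3, so the summed levels overlapped.

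Grn encodes progranulin, a secreted protein that is cut into granulins in the lysosome and supports several hydrolases there (ENSMUSG00000034708.11, chromosome 11, 102430315 to 102437048, plus strand). It was at 785.7, 1184 and 1180 CPM in CD206pos and at 272.3, 408.7 and 361.6 CPM in CD206neg. Every CD206pos library was above every CD206neg library. The mean was 1050 ± 229 CPM in CD206pos and 347.5 ± 69.27 CPM in CD206neg (SD, n = 3 each), 3.02-fold higher in CD206pos, with a log2 fold change of 1.60 ± 0.21 (SE) and an edgeR adjusted p of 0.0048. Per exon length, Grn ranked 5th among the 42 genes by mean level in CD206pos and 12th in CD206neg. Psap, the precursor of the saposins that present lipids to hydrolases, is known to bind progranulin. Psap was at 1664, 2374 and 2866 CPM in CD206pos and at 1721, 2227 and 2670 CPM in CD206neg, with broad overlap (log2 fold change 0.06 ± 0.23, adjusted p = 0.94). Psap had the highest level per exon length of the 42 genes in both groups, at 2459 ± 710.4 TPM in CD206pos and 2562 ± 595.9 TPM in CD206neg.

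Tpp1 encodes tripeptidyl peptidase 1, a serine protease that removes tripeptides from the ends of proteins (ENSMUSG00000030894.5, chromosome 7, 105744811 to 105752235, minus strand). It was at 340.7, 413.7 and 446.6 CPM in CD206pos and at 200.4, 206.1 and 218.3 CPM in CD206neg. The CD206neg libraries lay close together and all below the lowest CD206pos library. Tpp1 was 1.92-fold higher in CD206pos (log2 fold change 0.94 ± 0.14, adjusted p = 0.0085), and the call was lost without replicate 2 of CD206pos (adjusted p = 0.068) or of CD206neg (adjusted p = 0.063). Ppt1, a thioesterase that removes fatty acids from proteins and is mutated like Tpp1 in a form of human neuronal ceroid lipofuscinosis, was at 183.8, 236.2 and 241.5 CPM in CD206pos and at 155.4, 163.2 and 188.3 CPM in CD206neg. The groups overlapped slightly and Ppt1 did not pass (log2 fold change 0.38 ± 0.16, adjusted p = 0.26).

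Hexa encodes the alpha subunit of beta-hexosaminidase, which degrades GM2 ganglioside (ENSMUSG00000025232.8, chromosome 9, 59539540 to 59565109, plus strand). Its levels were 730, 916.2 and 1118 CPM in CD206pos and at 479.2, 529.4 and 593.7 CPM in CD206neg. No CD206neg library reached the lowest CD206pos library. Hexa was 1.73-fold higher in CD206pos (log2 fold change 0.79 ± 0.18, adjusted p = 0.042), a call lost with upper-quartile scaling (0.056), with library totals (0.07) and without any 1 library other than CD206pos replicate 1 (adjusted p between 0.082 and 0.18). Of its exon length 12.8% overlaps another gene on the opposite strand, and reads there are not counted.

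Neu1 encodes the sialidase that trims sialic acid from glycoproteins (ENSMUSG00000007038.5, chromosome 17, 34931253 to 34935953, plus strand). Its levels were 124.8, 158.2 and 158.3 CPM in CD206pos and at 80.64, 101.8 and 75.65 CPM in CD206neg. The groups did not overlap, and Neu1 was 1.71-fold higher in CD206pos (log2 fold change 0.77 ± 0.18, adjusted p = 0.048). Its call was lost with RLE scaling (0.053), upper-quartile scaling (0.056), library totals (0.075) and without any 1 library other than CD206pos replicate 1 (adjusted p between 0.087 and 0.22). Glb1, the beta-galactosidase that shares a complex with NEU1, was at 112.8, 160.6 and 174.2 CPM in CD206pos and at 110.7, 110.3 and 135.2 CPM in CD206neg (log2 fold change 0.33 ± 0.20, adjusted p = 0.46), with overlap at litter 1 of CD206pos.

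Asah1, the acid ceramidase, was at 399, 462.2 and 529.2 CPM in CD206pos and at 256.1, 277.5 and 350.9 CPM in CD206neg. The groups did not overlap, yet Asah1 missed the threshold (log2 fold change 0.65 ± 0.17, adjusted p = 0.071) and passed it with the litter block (adjusted p = 0.016), DESeq2 (0.009) and limma-voom (0.025). Gusb, the beta-glucuronidase, was at 1108, 1381 and 1503 CPM in CD206pos and at 1023, 936.3 and 1016 CPM in CD206neg, also without overlap (log2 fold change 0.42 ± 0.14, adjusted p = 0.16). Gusb passed with limma-voom (adjusted p = 0.038) and when CD206pos replicate 1 was left out (0.047).

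The other hydrolases did not pass. Fuca1, the fucosidase, had a log2 fold change of 0.48 ± 0.24 (adjusted p = 0.34), and Galc, which removes galactose from galactosylceramide, one of 0.50 ± 0.32 (adjusted p = 0.49). Gaa, the acid alpha-glucosidase that breaks down glycogen, was at 112.3, 131.9 and 148.7 CPM in CD206pos and at 120.9, 106.5 and 67.89 CPM in CD206neg, so CD206neg of litter 1 lay within the CD206pos range. Gla, an alpha-galactosidase with 2 TCACGTGA copies in the window shown above, was at 71.07, 73.86 and 87.96 CPM in CD206pos and at 61.5, 72.1 and 67.66 CPM in CD206neg (log2 fold change 0.21 ± 0.17, adjusted p = 0.62). Man2b1, the alpha-mannosidase, was at 306.5, 463.7 and 544.4 CPM in CD206pos and at 411.7, 406.2 and 396.6 CPM in CD206neg. Its lowest and highest libraries were both CD206pos (log2 fold change 0.11 ± 0.20, adjusted p = 0.86). Arsb, arylsulfatase B, had a log2 fold change of 0.43 ± 0.27 (adjusted p = 0.49), and 39.9% of its exon length overlaps other genes, so its counts are uncertain.

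The summed level of this group was graded from litter 1 up to litter 3 in CD206pos and in CD206neg alike. For 13 of the 15 hydrolase and cofactor genes, CD206pos of litter 1 was the lowest of the 3 CD206pos libraries. CD206pos of litter 3 was the highest, also for 13 of the 15. Among the CD206neg libraries litter 1 was the lowest for 8 of the 15 and litter 3 the highest for 8. The median log2 ratio of the 15 genes was 0.24 in litter 1, 0.53 in litter 2 and 0.59 in litter 3. The summed macrophage marker level was graded too, at 11881.7, 14056.1 and 15757.1 CPM in CD206pos of litters 1, 2 and 3. In CD206neg it was at 6630.6, 8037.2 and 8400.2 CPM. CD206pos of litter 1 also had the highest share of mitochondrial reads of the 6 libraries, at 0.997%, where the others lay between 0.486% and 0.86%. The 0.86% was in CD206neg of litter 3, which had the highest summed hydrolase and cofactor level of the CD206neg libraries. The part of either in the hydrolase levels was not tested.

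**Figure D2:**
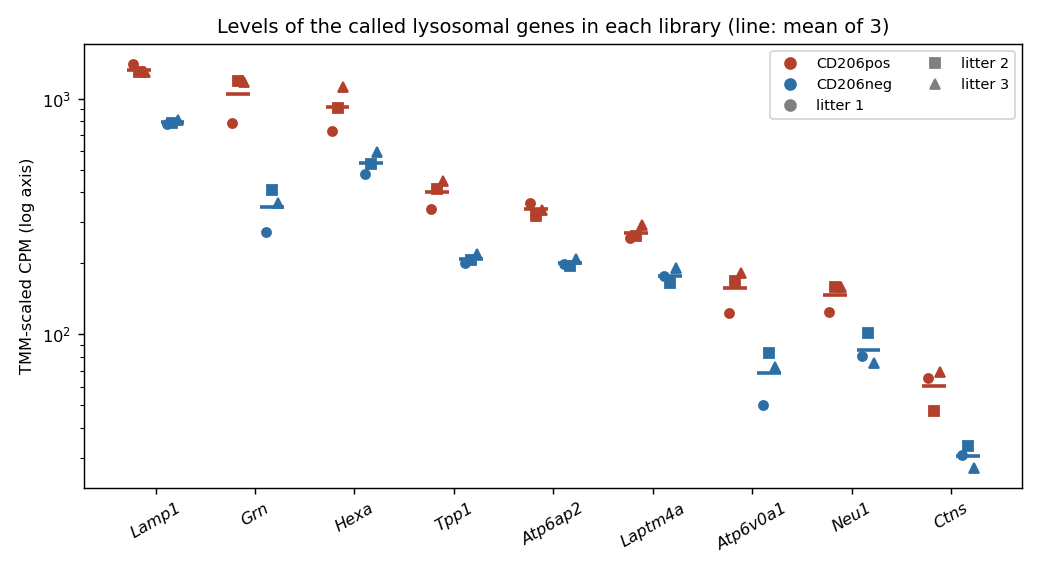
The y axis (log scale) is the TMM-scaled CPM of the 9 called genes in each library; red is CD206pos, blue is CD206neg, symbols mark litters and lines are means of 3 libraries. For each of the 9 genes the lowest red point lies above the highest blue point.

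Of the 9 membrane proteins 3 rose and 6 did not pass (median log2 fold change 0.60), and 5 did not overlap between the groups. Their summed level was 3775.3, 4006.8 and 4064.1 CPM in CD206pos and 2899.9, 3108.3 and 3087 CPM in CD206neg, without overlap and with a ratio of 1.30.

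Lamp1 encodes a heavily glycosylated protein that lines the lysosomal membrane (ENSMUSG00000031447.7, chromosome 8, 13159161 to 13175338, plus strand). Its levels were 1399, 1295 and 1290 CPM in CD206pos and at 783, 789.3 and 810.9 CPM in CD206neg. The libraries of each group lay close together and far from the other group. Lamp1 was 1.67-fold higher in CD206pos (log2 fold change 0.74 ± 0.11, adjusted p = 0.0086), and its call was lost without replicate 2 of CD206pos (adjusted p = 0.055) or of CD206neg (adjusted p = 0.061). Of its exon length 9.31% overlaps a gene on the other strand, and reads there are not counted. Per exon length Lamp1 averaged 1446 ± 24.05 TPM in CD206pos, second to Psap, and 943.7 ± 35.65 TPM in CD206neg, where Psap and Laptm5 had higher means. Its paralog Lamp2, which also serves in chaperone-mediated autophagy, was at 372.1, 343.9 and 395.9 CPM in CD206pos and at 203.1, 265.9 and 263.3 CPM in CD206neg. The groups did not overlap, and Lamp2 missed the threshold (log2 fold change 0.60 ± 0.15, adjusted p = 0.06), passing with the litter block (adjusted p just under 0.05), DESeq2 (0.0067) and limma-voom (0.043).

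Laptm4a encodes a small membrane protein of late endosomes and lysosomes (ENSMUSG00000020585.4, chromosome 12, 8921664 to 8938742, plus strand). Its levels were 257.2, 261.5 and 290.3 CPM in CD206pos and at 177, 165.7 and 190.3 CPM in CD206neg, and the CD206pos mean was 1.52-fold higher without overlap (log2 fold change 0.60 ± 0.13, adjusted p = 0.039). Its call was lost with upper-quartile scaling (0.051), library totals (0.07), the looser filter (0.05) and without any 1 library other than CD206pos replicate 1 (adjusted p between 0.081 and 0.17). Its relative Laptm5, which is made mainly in blood cells, was at 1383, 1723 and 1638 CPM in CD206pos and at 1511, 1606 and 1527 CPM in CD206neg. The groups overlapped fully, and Laptm5 had the smallest log2 fold change of the 41 tested genes (0.03 ± 0.13, adjusted p = 0.95).

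Ctns encodes cystinosin, which exports cystine from the lysosome (ENSMUSG00000005949.9, chromosome 11, 73183596 to 73199042, minus strand). It was at 65.03, 47.14 and 69.25 CPM in CD206pos and at 30.89, 33.71 and 27.17 CPM in CD206neg, 1.98-fold higher without overlap (log2 fold change 0.98 ± 0.22, adjusted p = 0.042). This call was among the least stable: it was lost with library totals (adjusted p = 0.058), with the litter block (0.065) and without any 1 of the 6 libraries (adjusted p between 0.063 and 0.16). Cd63, a tetraspanin of late endosomes and exosomes, was at 121.1, 129.5 and 162.7 CPM in CD206pos and at 72.49, 74.29 and 99.95 CPM in CD206neg, without overlap (log2 fold change 0.74 ± 0.19, adjusted p = 0.073). Cd63 passed with the litter block (adjusted p = 0.027), DESeq2 (0.012) and limma-voom (0.035).

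Mcoln1, the lysosomal calcium channel TRPML1, was at 86.7, 115.3 and 115.7 CPM in CD206pos and at 66.02, 81 and 89.94 CPM in CD206neg (log2 fold change 0.42 ± 0.19, adjusted p = 0.3). Scarb2, which carries glucocerebrosidase to the lysosome, was at 83.41, 86.33 and 100.6 CPM in CD206pos and at 52.97, 88.86 and 77.06 CPM in CD206neg (log2 fold change 0.30 ± 0.22, adjusted p = 0.56). In both genes 1 CD206neg library lay within the CD206pos range. Gpnmb, a glycoprotein known from lipid-laden macrophages and osteoclasts, was low in all libraries, at 6.961, 4.863 and 1.444 CPM in CD206pos and at 3.915, 3.585 and 1.575 CPM in CD206neg. With 25 to 114 reads a library its log2 fold change of 0.55 ± 0.74 (adjusted p = 0.8) was the least precise of the 41.

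Of the 15 V-ATPase genes 14 were tested, 2 rose and 12 did not pass (median log2 fold change 0.43), and 11 did not overlap between the groups. Their summed level was 4149.1, 4342.6 and 4593.8 CPM in CD206pos and 3292.7, 3091.1 and 3315.4 CPM in CD206neg, without overlap and with a ratio of 1.35. The ratio was 1.55 for the V0 genes and 1.26 for the V1 genes. Whether the 2 sectors differ in their change was not tested.

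V0 is the ring in the membrane through which protons pass. Its a subunit, the stator arm that takes protons to the ring, has 4 isoform genes, of which Atp6v0a1 is a member of the set (ENSMUSG00000019302.16, chromosome 11, 101009452 to 101063719, plus strand). Atp6v0a1 was at 123.4, 168.4 and 181.7 CPM in CD206pos and at 50.19, 83.2 and 72.78 CPM in CD206neg. All CD206pos libraries were above all CD206neg libraries, and the mean was 2.296-fold higher (log2 fold change 1.20 ± 0.23, adjusted p = 0.025). The call was lost without any 1 library other than CD206pos replicate 1 (adjusted p between 0.067 and 0.13).

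The other a isoforms, which are no members of the set, are given for comparison per exon length. Atp6v0a1 was at 52.22, 77.79 and 81.59 TPM in CD206pos and at 23.65, 41 and 35.65 TPM in CD206neg. Atp6v0a2 was at 33.57, 62.5 and 64.74 TPM in CD206pos and at 49.93, 74.4 and 53.34 TPM in CD206neg (log2 fold change -0.03, adjusted p = 0.98). Tcirg1, the a3 isoform known from osteoclast and macrophage lysosomes, was at 120.9, 166.2 and 174.1 TPM in CD206pos and at 128.2, 152.6 and 176.6 TPM in CD206neg (log2 fold change 0.13, adjusted p = 0.78). Tcirg1 was the highest of the isoforms in every library, and Atp6v0a4 had no reads. Atp6v0a1 made up 25.27%, 25.38% and 25.46% of the summed TPM of the a isoforms in CD206pos and 11.72%, 15.3% and 13.43% in CD206neg. The mean share of Tcirg1 was 55.68% in CD206pos and 62.32% in CD206neg, and that of Atp6v0a2 was 18.95% in CD206pos and 24.2% in CD206neg.

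**Figure D3:**
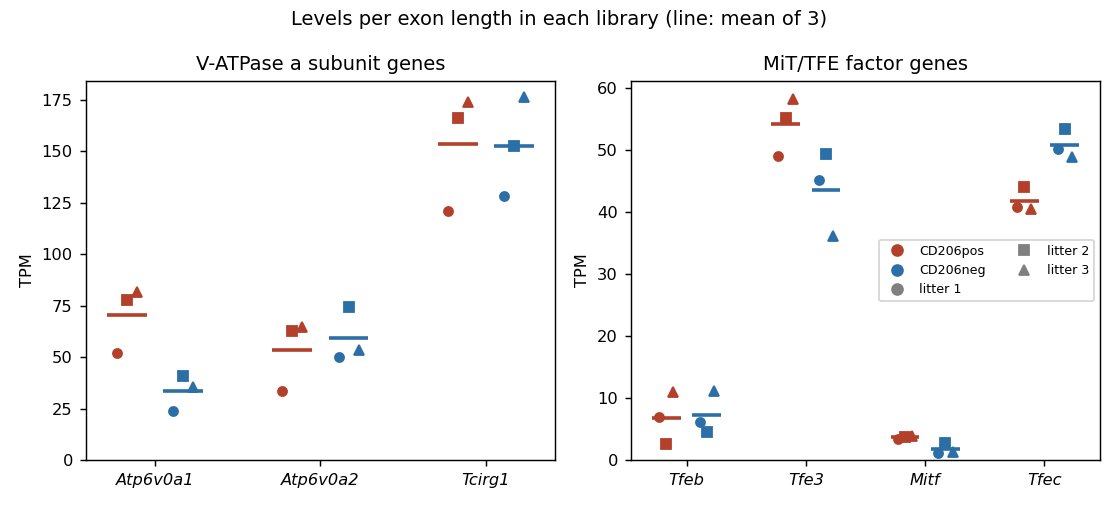
The y axes are TPM (reads per exon length, scaled to an equal sum in each library) of 3 V-ATPase a subunit genes, left, and of 4 MiT/TFE genes, right, with CD206pos in red left of CD206neg in blue, litters by symbol and means of 3 libraries as lines. Among the a subunit genes the groups stand apart for Atp6v0a1 and overlap for Atp6v0a2 and Tcirg1, and among the factors Mitf and Tfeb are low in both groups.

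The other V0 members did not pass. Atp6v0d1, the common d subunit that ties the ring to the central stalk, was at 237, 281.4 and 359.4 CPM in CD206pos and at 165.3, 182.9 and 213.3 CPM in CD206neg, without overlap (log2 fold change 0.64 ± 0.18, adjusted p = 0.1). It passed with the litter block (adjusted p = 0.028), DESeq2 (0.024) and limma-voom (0.043). Its paralog Atp6v0d2, known from osteoclasts, did not pass the filter and had 0, 11 and 39 reads in the CD206pos libraries and 0, 0 and 0 reads in the CD206neg libraries. At these depths 3 reads, the upper limit that a count of 0 allows, stand for 0.165 to 0.179 CPM in a library. The proteolipid genes Atp6v0b and Atp6v0c, whose products form the ring, had log2 fold changes of 0.43 ± 0.14 (adjusted p = 0.15) and 0.64 ± 0.21 (adjusted p = 0.14), both without overlap. For Atp6v0c 27.4% of the exon length overlaps an unnamed gene on the same strand and the annotation lists pseudogenes of it, so its level is uncertain.

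V1 is the cytosolic sector that splits ATP. None of its 8 member genes was called by edgeR, 5 had an unadjusted p under 0.05, DESeq2 called 1 (Atp6v1g1) and limma-voom called 0. Log2 fold changes lay between 0.24 and 0.66, with a median of 0.35, and 5 of the 8 did not overlap between the groups. Atp6v1g1, of the peripheral stalk, was at 170.7, 118.1 and 140.8 CPM in CD206pos and at 87.22, 78.63 and 105.7 CPM in CD206neg (log2 fold change 0.66 ± 0.19, adjusted p = 0.1). The catalytic subunit gene Atp6v1a, with TCACGTGA in the window shown above, was at 254.9, 333.3 and 291.8 CPM in CD206pos and at 196.6, 261.6 and 195.4 CPM in CD206neg, with CD206neg of litter 2 above CD206pos of litter 1. Its partner Atp6v1b2 was at 828.3, 1065 and 1093 CPM in CD206pos and at 956.6, 741.2 and 804.7 CPM in CD206neg, also with overlap (log2 fold change 0.25, adjusted p = 0.48).

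The remaining V1 genes lay closer together. Atp6v1c1, whose yeast counterpart controls the joining of V1 to V0, was at 374.5, 334.6 and 359.1 CPM in CD206pos and at 294.5, 239.6 and 285.8 CPM in CD206neg (log2 fold change 0.38, adjusted p = 0.18). Atp6v1d, of the central stalk, and Atp6v1e1, of the peripheral stalk, had log2 fold changes of 0.42 (adjusted p = 0.19) and 0.33 (adjusted p = 0.24). Atp6v1h, whose yeast counterpart couples ATP hydrolysis to proton flow, had one of 0.31 (adjusted p = 0.3), and Atp6v1f, of the stalk, one of 0.24 (adjusted p = 0.52). Of these 5 genes only Atp6v1f overlapped between the groups. In 6 of the 8 V1 genes CD206pos of litter 1 was the highest CD206pos library, where it had been the lowest for 13 of the 15 hydrolase and cofactor genes.

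The accessory subunits help assemble and target the pump. Atp6ap2 is also known as the prorenin receptor gene (ENSMUSG00000031007.2, chromosome X, 12587801 to 12617049, plus strand). Its levels were 361.3, 318.2 and 337.6 CPM in CD206pos and at 199.5, 194.3 and 207.8 CPM in CD206neg. The groups lay far apart relative to their spread, and Atp6ap2 was 1.69-fold higher in CD206pos (log2 fold change 0.76 ± 0.13, adjusted p = 0.011). Its call was lost without CD206pos replicate 2 (0.051), CD206neg replicate 1 (0.05) or CD206neg replicate 2 (0.077). Atp6ap1 was at 412.9, 547.9 and 575.9 CPM in CD206pos and at 331.9, 375.7 and 407.4 CPM in CD206neg, without overlap (log2 fold change 0.46 ± 0.16, adjusted p = 0.18).

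None of the 3 MiT/TFE regulators was called by edgeR, DESeq2 or limma-voom, and 2 of them, Tfe3 and Mitf, had an unadjusted p under 0.05 in edgeR. Tfe3 was at 163.9, 168.9 and 183.5 CPM in CD206pos and at 135.6, 141.7 and 104.1 CPM in CD206neg, without overlap (log2 fold change 0.44 ± 0.16, adjusted p = 0.2). Mitf was at 7.632, 7.723 and 8.028 CPM in CD206pos and at 2.338, 5.319 and 2.587 CPM in CD206neg, also without overlap (log2 fold change 1.19 ± 0.50, adjusted p = 0.26). Mitf rested on 125 to 139 reads a library in CD206pos and on 43 to 92 in CD206neg. Tfeb was at 14.04, 4.805 and 21.14 CPM in CD206pos and at 11.15, 7.921 and 19.57 CPM in CD206neg. Its litters differed more than its groups, and its log2 fold change of 0.05 ± 0.55 (adjusted p = 0.98) turned to -0.083 with the litter block, -0.049 with library totals and -0.21 with limma-voom.

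Per exon length, Tfe3 was at 49.11, 55.25 and 58.32 TPM in CD206pos and at 45.22, 49.42 and 36.1 TPM in CD206neg, above Tfeb and Mitf in every library. Tfec, a family member known from macrophages and not in the set, was at 40.82, 44.08 and 40.51 TPM in CD206pos and at 50.15, 53.4 and 48.86 TPM in CD206neg (log2 fold change -0.16, adjusted p = 0.68). These are transcript levels, and the factors are known to be controlled largely by where the protein sits in the cell, which was not measured.

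Other lysosomal genes were read from lists outside the 42, also chosen with earlier results known. Of 32 further hydrolase genes 4 rose and none fell (0 lower also at an unadjusted p under 0.05 and by DESeq2 and limma-voom), with a median log2 fold change of 0.42, where 2.97% of all tested genes rose. Unlike the members, 8 of the 32 had a negative log2 fold change, down to -1.37, and 3 were lower in CD206pos in all litters. Acp2, a lysosomal acid phosphatase, averaged 161.4 ± 23.29 CPM in CD206pos and 72.9 ± 14.05 CPM in CD206neg (adjusted p = 0.014). Scpep1, a serine carboxypeptidase, averaged 207.6 ± 41.79 CPM in CD206pos and 95.07 ± 18.28 CPM in CD206neg (adjusted p = 0.019). Dpp7, a dipeptidyl peptidase, averaged 177.8 ± 23.92 CPM in CD206pos and 89.2 ± 10.23 CPM in CD206neg (adjusted p = 0.013). The fourth was the DNase gene Dnase2a (log2 fold change 0.88, adjusted p = 0.038), a call lost with library totals (adjusted p = 0.058), with the litter block (0.056) and without any 1 library. The calls of Acp2, Scpep1 and Dpp7 were kept under the 9 alternatives that keep all libraries and lost without CD206pos replicate 3, where 0 of the 32 genes were called. Acp2 was also lost without CD206pos replicate 2 or CD206neg replicate 1 or 3. Scpep1 was also lost without CD206pos replicate 2 or CD206neg replicate 1 or 2, and Dpp7 without CD206neg replicate 2 or 3.

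Of 27 further membrane protein genes 26 were tested, 4 rose and 22 did not pass (median log2 fold change 0.49, with 3 negative). Hgsnat, which acetylates heparan sulfate across the lysosomal membrane, averaged 357.8 ± 41.31 CPM in CD206pos and 111.3 ± 18.63 CPM in CD206neg, 3.22-fold higher (log2 fold change 1.68 ± 0.17, adjusted p = 0.0016). Mfsd1, a lysosomal transporter, averaged 728.5 ± 26.54 CPM in CD206pos and 395.2 ± 25.83 CPM in CD206neg (adjusted p = 0.005). Both calls held without any 1 library, and both were lost without litter 2, that of Mfsd1 also without litter 3. The macrophage sialomucin gene Cd68 (log2 fold change 1.03, adjusted p = 0.015) and the sialic acid exporter gene Slc17a5 (1.29, adjusted p = 0.015) rose as well, and each lost its call without 4 of the 6 libraries, among them CD206pos replicate 3 and CD206neg replicates 1 and 2.

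For genes that act around the lysosome, the counts are to be read against the 2.97% of all tested genes called higher and the 1.90% called lower. Of the 10 tested of 15 further V-ATPase genes edgeR called 0, with 1 at an unadjusted p under 0.05, and DESeq2 and limma-voom called 0. Their median log2 fold change was 0.13, with 3 of the 10 negative. The ratio of their summed levels was 1.07, against 1.35 for the 15 V-ATPase members. Of 16 sorting receptor and trafficking genes edgeR and limma-voom called 0 and DESeq2 called 1 higher. In edgeR 2 were higher and 1 lower at an unadjusted p under 0.05. The median log2 fold change of the 16 was 0.20, with 4 negative. Of 17 tested genes of mTORC1 signalling at the lysosome 1 rose: Flcn, folliculin, which keeps TFEB and TFE3 in the cytoplasm when nutrients are plentiful, averaged 324.3 ± 75.02 CPM in CD206pos and 176.4 ± 17.83 CPM in CD206neg (log2 fold change 0.88, adjusted p = 0.033). Its call held without CD206pos replicate 1 and was lost without any other library. The median log2 fold change of the 17 genes was 0.29, with 4 negative.

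Of 20 autophagy genes 2 rose and 1 fell (median log2 fold change 0.40, with 7 negative). Gabarap, which attaches to autophagosome membranes, averaged 407.2 ± 18.26 CPM in CD206pos and 231.5 ± 23.79 CPM in CD206neg (log2 fold change 0.81, adjusted p = 0.011). The cargo receptor gene Sqstm1 averaged 603.4 ± 57.87 CPM in CD206pos and 388.1 ± 56.84 CPM in CD206neg, with an adjusted p just under 0.05 that was lost with RLE, upper-quartile and total scaling and without any 1 library. Gabarapl1, a close relative of Gabarap, fell to 50.83 ± 5.473 CPM in CD206pos, against 97.2 ± 18.31 CPM in CD206neg (log2 fold change -0.94, adjusted p = 0.032), a call lost without any 1 library. Without CD206pos replicate 2 or 3 or CD206neg replicate 2 none of the 20 genes was called higher.

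Markers of other cell types differed along with these levels. For all marker lists, the shares over all tested genes were 2.97% called higher and 1.90% called lower. The 14 macrophage markers summed to 11881.7 to 15757.1 CPM in CD206pos and 6630.6 to 8400.2 CPM in CD206neg, with 7 of 14 higher. Not all went this way: 2 of the 14 were lower in CD206pos without overlap (lowest log2 fold change -0.95), though not called. Over all tested genes 11.8% were lower without overlap. The 12 progenitor markers summed to 44.4 to 80.1 CPM in CD206pos and 765.1 to 1122.7 CPM in CD206neg, with 9 of 12 lower and Kit at 0 reads in CD206pos. The 12 granulocyte precursor markers summed to 17.3 to 69.6 CPM in CD206pos and 1870.5 to 2889.4 CPM in CD206neg. All 8 tested were lower, and 7 of the 12, Ctsg, Ms4a3, S100a8, S100a9, Fcnb, Ngp and Camp, had 0 reads in CD206pos. Endothelial markers summed to 63.1 to 85.5 CPM in CD206pos and 165.2 to 284.5 CPM in CD206neg, with 2 of 10 lower and Sox17 and Sox18 at 0 reads in CD206pos. Erythroid and megakaryocyte markers summed to 11.7 to 23.6 CPM in CD206pos and 82.1 to 116.6 CPM in CD206neg, with 3 of 8 tested lower and Gata1, Gfi1b and Gp1bb among those at 0 reads in CD206pos. Another 3 of these 8 had a positive log2 fold change, 1 of them without overlap, and none was called higher. Over all tested genes 12.8% were higher without overlap.

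Mesenchymal markers summed to 4.7 to 74.7 CPM in CD206pos and 10.7 to 93.4 CPM in CD206neg, with 0 of 6 tested called by edgeR, DESeq2 or limma-voom, 0 at an unadjusted p under 0.05 and Twist1 at 0 reads in CD206pos. Osteoclast markers summed to 89.5 to 122.1 CPM in CD206pos and 80.8 to 91.7 CPM in CD206neg, with 0 of 4 tested called by edgeR or limma-voom, 1 by DESeq2, 1 at an unadjusted p under 0.05 and Ctsk, Calcr and Oscar at 0 reads in CD206pos. The part of the progenitor, granulocyte precursor and endothelial cells in the lysosomal levels was not tested. In sorted bulk RNA, fewer macrophages among the cells and less lysosomal RNA per macrophage cannot be told apart.

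**Figure D4:**
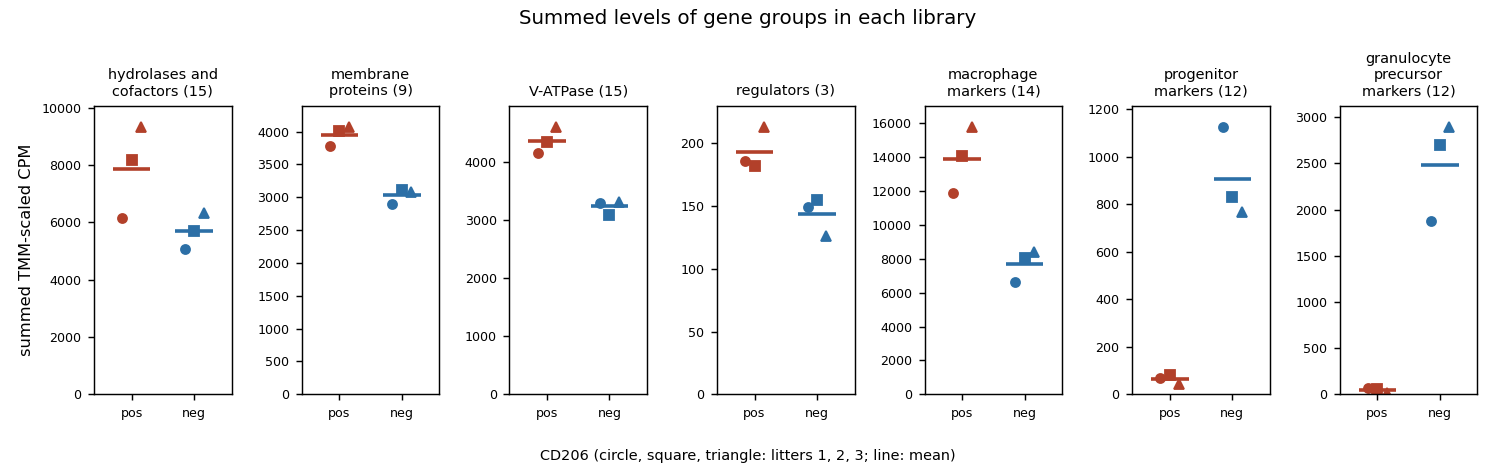
Each panel has its own y axis from 0, the summed TMM-scaled CPM of 1 group of genes in each library, with CD206pos (pos, red) left of CD206neg (neg, blue), litters by symbol and the mean as a line; the number in each title is the number of genes. Hydrolases and cofactors overlap between the groups, membrane proteins, V-ATPase genes and regulators do not, and progenitor and granulocyte precursor markers are low in CD206pos.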

How the data were processed

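RNA-seq libraries of sorted MacGreen AGM cells were compared, 3 CD206pos and 3 CD206neg. The deposited files hold whole-number read counts per gene and the summed exon length of each gene. Counts were made by the authors with featureCounts 1.5.2 over exons of GENCODE vM14, and the command set no option on strand, pairs, multi-mapping or overlaps, per the file headers. Reads shared by overlapping genes are therefore not counted, and a gene's reads include those of the opposite strand. Builds mm10 and GRCm38.p5 and the tools STAR 2.3, FastQC and Subread are named in the submitters' processing notes. Whether libraries were stranded is not stated in the labels. Coordinates follow the files (GRCm38, 1-based). Symbols came from GENCODE M21 and matched 51633 of 51912 identifiers, all 42 members among them.

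The test was edgeR 4.0.16 in R 4.3.3 (filterByExpr, TMM, robust quasi-likelihood F test, Benjamini-Hochberg over 12668 genes, no litter block). The common biological coefficient of variation was 0.44. CPM are read counts over all reads in genes times the TMM factor, TPM use the deposited exon length, and a standard error is the log2 fold change divided by the square root of F. Alternatives were the litter block, scaling by RLE, upper quartile or library totals, a looser filter (1 read or more), a stricter one (5 CPM or more in 3 libraries), DESeq2 1.42.0, limma-voom (limma 3.58.1) with quality weights, no robust estimation, and leaving out each library or litter. The fits were checked on simulated data, with changes given to genes drawn at random from all those tested. The main fit called 68.4% of 95 genes changed 4-fold and 32.3% of 96 changed 2-fold, with 9 false calls. A gene that did not pass is therefore not shown to be unchanged.

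Groups came from the labels. The titles number the AGM samples 1 to 3 and the series design names 3 litters, and an equal number was taken to mean the same litter. Deviations from the group means correlated at 0.089, 0.039 and 0.18 for litters 1, 2 and 3, and at -0.15 to 0.064 between different litters. No 2 libraries were copies: within groups, chi-square over its degrees of freedom was 36.9 to 90.4. The limit set by a count of 0 covers counting error only, since reads that carry no molecular identifier can be PCR copies of 1 molecule. The members and lists were chosen with earlier results of these data known. Named genes are all 42 members, Mrc1 and Csf1r, and of each other lysosomal list up to 4 called genes per direction with the smallest p. Paralogs of members (Atp6v0a2, Tcirg1, Atp6v0a4 and Tfec) were added after their values were seen. RefSeq promoter windows were matched by symbol.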

Additional observations from a re-analysis of the deposited data

How the results depend on the processing

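Members called higher (9) numbered 5 with library totals, 14 with DESeq2 and 14 with limma-voom, and 0 to 9 with 1 library or litter left out. All 9 calls were kept with DESeq2, limma-voom, the stricter filter and edgeR without robust estimation. With the litter as a replicate block 12 members and 703 genes were called, and apart from Ctns, Asah1, Atp6v0d1, Cd63 and Lamp2 the block changed no member's call. Hydrolases and cofactors (4) numbered 2 with upper-quartile scaling and 2 with library totals, and 0 to 5 with libraries left out. Membrane proteins (3) numbered 1 with library totals and 5 with the stricter filter, DESeq2 and limma-voom, and 0 to 2 with libraries left out. V-ATPase genes (2) numbered 4 with DESeq2 and 0 to 2 with libraries left out. The median log2 fold change was 0.35 over all members and 0.34 over V-ATPase genes with library totals, and lay between 0.36 and 0.53 and between 0.37 and 0.51 with libraries left out. For hydrolases and cofactors it then lay between 0.28 and 0.56, and for membrane proteins between 0.48 and 0.67. Over all genes, 660 were called higher and 550 lower with DESeq2, and 2 to 355 higher and 1 to 206 lower with libraries left out.

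Further hydrolases (4) numbered 9 with DESeq2 and 0 to 4 with libraries left out, further membrane proteins (4) 8 with DESeq2, 7 with limma-voom and 0 to 6 with libraries left out, sorting genes (0) 1 with DESeq2, and mTORC1 genes (1) 2 with DESeq2 and 0 to 1 with libraries left out. Autophagy genes called higher (2) numbered 1 with RLE, upper-quartile and total scaling, 4 with the stricter filter, DESeq2 and limma-voom, and 0 to 1 with libraries left out, and the gene called lower was then lost each time (0). Signs turned for small changes: with library totals to -0.032 for Psap, -0.058 for Laptm5 and -0.049 for Tfeb, for Tfeb also to -0.083 with the block and -0.21 with limma-voom, and for Atp6v0a2 to 0.00 with limma-voom. With libraries left out the range was -0.12 to 0.33 for Man2b1, -0.16 to 0.24 for Psap, -0.059 to 0.12 for Laptm5, -0.49 to 0.48 for Tfeb and -0.29 to 0.19 for Atp6v0a2. Over the members and alternatives, 635 results kept direction and side of the threshold, 66 lost a call, 18 gained one and 18 changed sign. The causes were not tested, beside the loss of libraries itself. Atp6v0d2, Gpnmb, Mitf and Tfeb had the fewest reads of the members, and of the tested members Gpnmb, Tfeb and Mitf had the widest standard errors.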
